A study of Arabidopsis thaliana with 36 samples.

Results

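IRT1 (AT4G19690), IRT2 (AT4G19680), FRO2 (AT1G01580), AHA2 (AT4G30190) and FIT (AT2G28160) belong to the reduction-based iron uptake system of Arabidopsis thaliana roots. The 5 genes were chosen by name and role from the 33557 genes of the deposited expression table, with earlier results of these data known. All 5 were among the 20411 genes kept after a filter on low values.

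Iron in soil is mostly present as poorly soluble ferric compounds. The proton pump AHA2 acidifies the root surface, the ferric chelate reductase FRO2 reduces ferric to ferrous iron, and the transporter IRT1 carries ferrous iron into epidermal cells. FIT, a bHLH transcription factor that acts in pairs with bHLH38, bHLH39, bHLH100 or bHLH101, turns on IRT1 and FRO2 when iron is short. IRT2 is a close relative of IRT1 and has been placed in intracellular vesicles. Phosphate binds iron in the medium and in the plant, so the supply of phosphate and the availability of iron are linked.

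RNA was measured in wild-type (WT) seedlings and in otu5, a mutant of the deubiquitinating enzyme OTU5, to ask what OTU5 does in roots and in their response to phosphate starvation. The 4 groups were WT on control medium, WT on medium low in phosphate (low Pi), otu5 on control medium and otu5 on low Pi, with 3 libraries each. All plants grew on plates at 21 C in continuous light and were harvested 14 d after germination. The labels do not give the phosphate concentrations, the iron in either medium, the otu5 allele or the number of independent otu5 lines. They name roots as the harvested tissue, but the text on RNA isolation names rosette leaves, and the culture condition entry contradicts the title in 6 of the 12 libraries. Groups were therefore taken from the titles and source names. Nothing states that replicates came from separate plates or plants, so the p-values rest on the variation among these libraries alone, part or all of which may be technical.

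Values are the authors' RPKM, a read number scaled by gene length and by library, so levels may be set side by side between genes. The sums of the libraries lay between 993382 and 1330830 RPKM, and Pearson's r between replicates, across genes on the log2 scale, was 0.988 to 0.993. OTU5 itself held 3.32% of the WT level in otu5 on control medium and 2.03% on low Pi. All 10 marker genes of phosphate starvation rose on low Pi in both genotypes (limma adjusted p under 0.05, 8 to 10 of them in each genotype over all alternative settings). Of all genes tested 2.55% rose in WT and 4.81% in otu5. The 6 markers of root epidermis and hairs and the 8 markers of the endodermis were above 0 in every library. The 14 markers of green shoot tissue were also present. Their summed level was 1289 to 1589 RPKM in WT on control medium, 996 to 1281 in WT on low Pi, 1787 to 1938 in otu5 on control medium and 1312 to 1343 in otu5 on low Pi. Only RBCS2B among the 14 was listed at 0, in 1 WT low Pi library. In RNA from a whole organ, fewer cells of a type and less RNA per cell cannot be told apart.

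The 5 genes did not move together. On low Pi, IRT1 and FRO2 fell in both genotypes. For FIT, AHA2 and IRT2 the same test found no change in either genotype. The exceptions among the alternative settings were FIT in a blocked fit of WT and AHA2 in otu5 with library weights. Between genotypes AHA2 was higher in otu5 on both media, and the other 4 genes did not pass. Of the 5 genes, 2 were called in WT low Pi against control, where 4.29% of all genes tested were called. In otu5 low Pi against control 2 were called, against 8.59% of all genes. Between genotypes 1 of 5 was called on control medium, where 10.4% of genes were (4.85% higher and 5.52% lower in otu5). On low Pi 1 of 5 was called, where 9.91% of genes were (4% higher and 5.91% lower). Differences are given as log2(RPKM + 0.5), a scale that shrinks the changes of low genes, and a gene was called at an adjusted p under 0.05 from a limma fit over all genes.

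**Figure D1:**
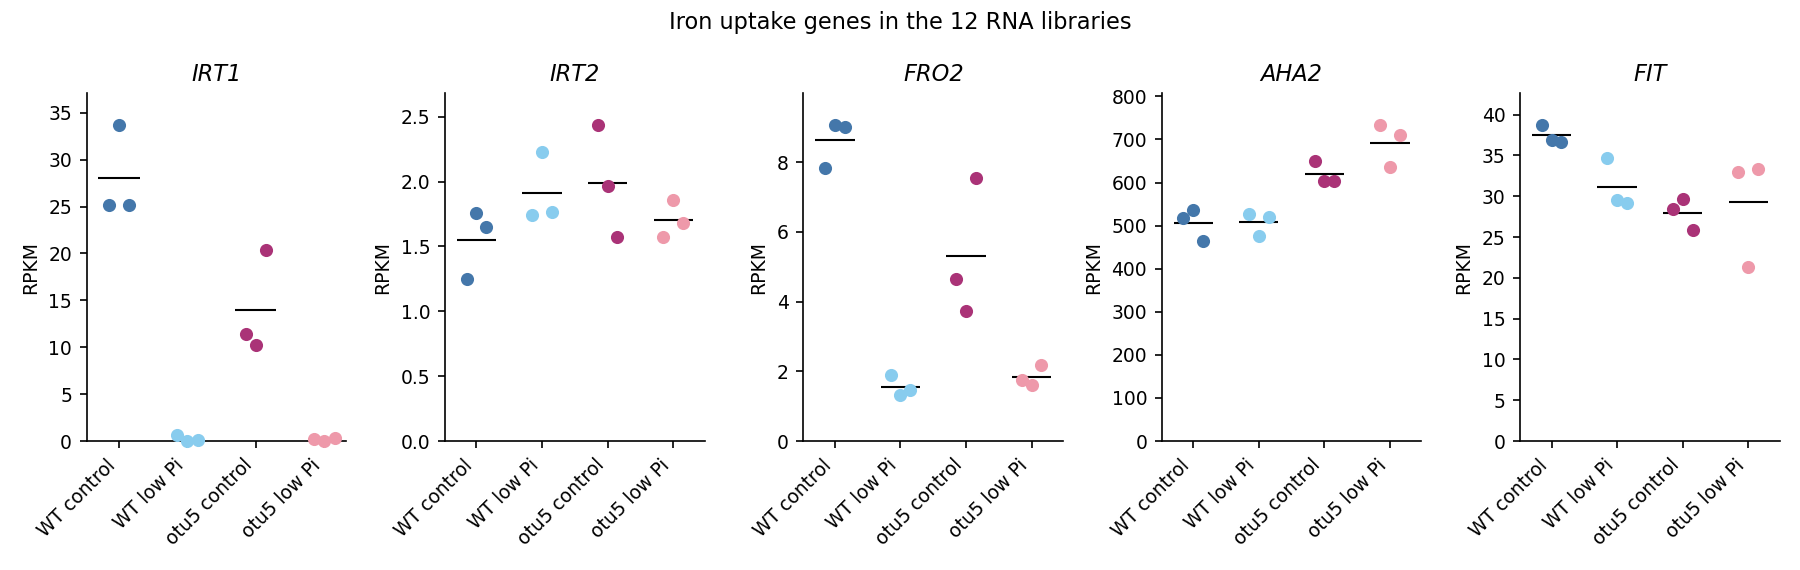
RPKM of IRT1, IRT2, FRO2, AHA2 and FIT in the 12 libraries, in 4 groups of 3. Each point is a library and each bar a group mean, drawn only where no library is listed at 0. IRT1 lies at 10.2 to 33.7 RPKM on control medium and at 0.592 or less on low Pi, while AHA2 lies at 465 to 733 RPKM throughout.

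IRT1, the root's main ferrous iron transporter, showed the widest change of the 5 genes. In WT on control medium its level was 25.2, 33.7 and 25.1 RPKM in replicates 1, 2 and 3 (27.99 ± 4.925, SD, n = 3). In WT on low Pi it was 0.592, listed at 0, and 0.129 RPKM. Every low Pi library lay far below every control library, and groups without overlap were found for 25.3% of all genes in that comparison. In WT control 68.5% of the genes tested had a lower mean than IRT1, and in WT low Pi 0.147% had. The filter had left out 13146 genes that reached 1 RPKM in fewer than 3 libraries. The share on low Pi is therefore partly set by the filter and is no rank among all genes of the table. The log2 difference was -5.33 (95% interval -6.06 to -4.61, limma adjusted p = 3.7e-05). Its size depends on the pseudocount, being -6.79 with 0.1 and -4.56 with 1, both outside that interval.

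In otu5 the same gene was at 11.4, 10.2 and 20.4 RPKM on control medium (14.0 ± 5.58, SD, n = 3). On low Pi its values were 0.197, listed at 0, and 0.350 RPKM. The low Pi libraries of both genotypes thus shared a range near 0. The fall in otu5 was -4.38 on the log2 scale (95% interval -5.10 to -3.65, limma adjusted p = 0.00014). With pseudocounts of 0.1 and 1 it was -5.82 and -3.61. In both genotypes the fall passed the threshold under every alternative setting and without any single library. IRT1 reached the filter through its control libraries alone, and both falls also passed with no filter.

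On control medium the 3 otu5 libraries of IRT1 lay below the 3 WT libraries, with a log2 difference of -1.03 (95% interval -1.75 to -0.30). This difference did not pass (limma adjusted p = 0.072), and groups that do not overlap were found for 33.2% of all genes in that comparison. It passed with a pseudocount of 1 (adjusted p = 0.033) and without WT low Pi replicate 1 (adjusted p = 0.042), and was -0.53 and not passing with library weights (adjusted p = 0.15). On low Pi the genotypes overlapped, with a difference of -0.07 (95% interval -0.80 to 0.65, adjusted p = 0.92). The order of IRT1 levels was WT control, otu5 control, then both low Pi groups, and only the step between otu5 control and WT low Pi passed (log2 difference 4.31, adjusted p = 9.1e-05).

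FRO2, which supplies IRT1 with ferrous iron, fell on low Pi as well, but less far. In WT it was at 7.83, 9.06 and 9.02 RPKM on control medium (8.64 ± 0.703, SD, n = 3) and at 1.90, 1.31 and 1.48 RPKM on low Pi (1.56 ± 0.302). The groups were far apart, where 25.3% of all genes had groups without overlap, and the mean on low Pi was 5.53-fold lower. The log2 difference was -2.16 (SE 0.21, limma adjusted p = 0.00039).

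In otu5 FRO2 was at 4.64, 3.74 and 7.54 RPKM on control medium (5.31 ± 1.99, SD, n = 3) and at 1.74, 1.60 and 2.18 RPKM on low Pi (1.84 ± 0.301). Again the groups did not overlap, as for 28.4% of all genes in that comparison, and the mean was 2.89-fold lower on low Pi. The log2 difference was -1.27 (SE 0.21, limma adjusted p = 0.0062). As with IRT1, the control libraries of otu5 lay below those of WT, where 33.2% of all genes had groups without overlap. The difference of -0.70 did not pass (95% interval -1.16 to -0.25, adjusted p = 0.055). That difference passed without otu5 control replicate 3 (-0.97, adjusted p = 0.017) and was -0.35 with library weights (adjusted p = 0.18). On low Pi the genotypes overlapped (difference 0.18, 95% interval -0.28 to 0.64, adjusted p = 0.62).

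Whether the fall on low Pi differed between genotypes was tested directly, as the otu5 change minus the WT change. For FRO2 this interaction was 0.89 on the log2 scale (95% interval 0.24 to 1.54), with an unadjusted p of 0.012 and a limma adjusted p of 0.77. For IRT1 it was 0.96 (95% interval -0.07 to 1.98, adjusted p = 0.93). None of the 5 genes passed the interaction test in limma, FRO2 alone had an unadjusted p under 0.05, and 0.0049% of all genes passed it. The smaller fall in otu5 is therefore given as values only.

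**Figure D2:**
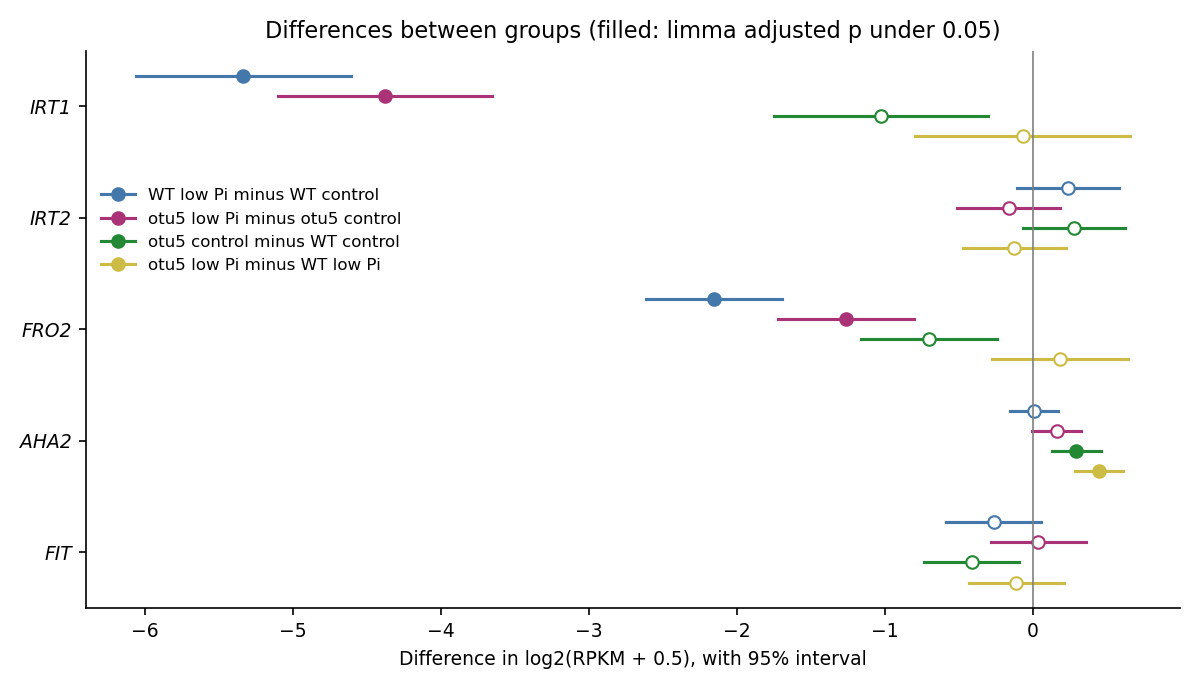
Differences of the 5 genes in the 4 comparisons between groups, as log2(RPKM + 0.5) on the horizontal axis. Points are limma estimates, bars their 95% intervals, and filled points have an adjusted p under 0.05. The falls of IRT1 (-5.33 and -4.38) and FRO2 (-2.16 and -1.27) on low Pi and the higher AHA2 in otu5 (0.29 and 0.44) are the filled points.

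On control medium IRT1 was 3.24 ± 0.466 times the level of FRO2 in WT and 2.63 ± 0.158 times in otu5 (SD, n = 3). The 3 otu5 ratios lay below the 3 WT ratios, and their difference was not tested. The spread within otu5 was common to both genes. Replicate 3 of otu5 on control medium was the highest of its group for IRT1 and FRO2, 2.00 and 2.02 times the lowest library. The same library was the lowest of its group for FIT. On low Pi, with IRT1 listed at 0 in 1 library of each genotype, its ratio to FRO2 ran from 0 to 0.312 in WT and from 0 to 0.161 in otu5.

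**Figure D3:**
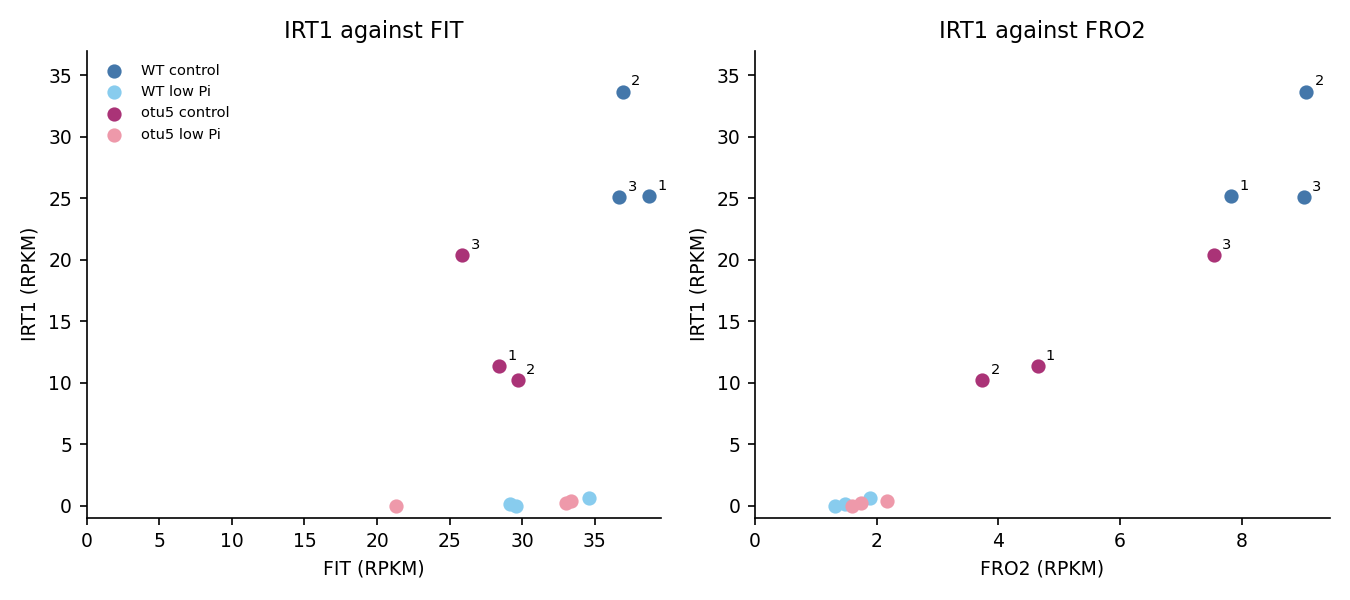
IRT1 against FIT (left) and against FRO2 (right), in RPKM, with 1 point per library and replicate numbers beside the control libraries. Low Pi libraries lie along the bottom at FIT values of 21.3 to 34.6 RPKM, and otu5 control replicate 3 lies above the other otu5 control libraries for IRT1 and FRO2.

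FIT, the regulator of both genes, lay between 21.3 and 38.7 RPKM in all 12 libraries. Its level in WT was 38.7, 36.9 and 36.7 RPKM on control medium (37.4 ± 1.11, SD, n = 3) and 34.6, 29.6 and 29.1 RPKM on low Pi (31.1 ± 3.05). The groups did not overlap, as for 25.3% of all genes in that comparison, and the log2 difference was -0.27 (95% interval -0.59 to 0.06, limma adjusted p = 0.35). Same-numbered WT libraries varied together, as did some differently numbered libraries of different groups. With the replicate number as a block in a fit of WT alone the same difference passed (limma adjusted p = 0.045). The block was chosen from these same data. That blocked fit called 1696 genes in place of 875.

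In otu5 FIT was at 28.4, 29.7 and 25.9 RPKM on control medium (27.99 ± 1.942, SD, n = 3) and at 33.0, 21.3 and 33.4 RPKM on low Pi (29.2 ± 6.84). Replicate 2 on low Pi lay below all other libraries, and the groups overlapped. The difference was 0.04 (95% interval -0.29 to 0.36, limma adjusted p = 0.92). Between genotypes on control medium, every otu5 library lay below every WT library, where 33.2% of all genes had groups without overlap. The log2 difference was -0.41 (95% interval -0.74 to -0.09, adjusted p = 0.097). That value passed in a fit of only the 2 groups (adjusted p = 0.014) and without otu5 low Pi replicate 2 (adjusted p = 0.009). On low Pi the genotypes overlapped (difference -0.11, 95% interval -0.44 to 0.21, adjusted p = 0.67). Except for the step from WT control to WT low Pi, neighbouring groups in the order of FIT means overlapped.

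Set against FIT in the same library, FRO2 was 0.231 ± 0.0251 of the FIT level in WT on control medium and 0.0499 ± 0.00529 on low Pi (SD, n = 3). In otu5 it was 0.194 ± 0.0869 on control medium and 0.0643 ± 0.0112 on low Pi. The ratio ranges did not overlap between media in either genotype, and no share over all genes was taken for ratios.

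AHA2, the proton pump, was by far the most abundant of the 5 transcripts. In WT it was at 519, 536 and 465 RPKM on control medium (507 ± 37.01, SD, n = 3) and at 528, 477 and 521 RPKM on low Pi (509 ± 27.6). The groups overlapped and the difference was 0.01 on the log2 scale (95% interval -0.16 to 0.17, limma adjusted p = 0.98). Its mean ranked 223 from the top of the 20411 genes tested in WT control.

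In otu5 AHA2 was at 651, 605 and 603 RPKM on control medium (620 ± 27.1, SD, n = 3) and at 733, 636 and 709 RPKM on low Pi (693 ± 50.9). Every otu5 library was above every WT library on both media, a separation found for 33.2% of all genes on control medium and 29.1% on low Pi. On control medium the mean was 22.3% higher than in WT (log2 difference 0.29, SE 0.07, limma adjusted p = 0.033), and on low Pi it was 36.2% higher (0.44, SE 0.07, adjusted p = 0.0058). Within otu5 the media overlapped, and the difference of 0.16 did not pass (95% interval -0.00 to 0.32, adjusted p = 0.22). With library weights that difference was 0.24 and passed (limma adjusted p = 0.0048).

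The call on control medium is the weaker of the pair. It was lost with equal library sums, a scaling that leaves the gene with the highest mean out of each sum (difference 0.36, adjusted p = 0.21). It was also lost in a fit of only the 2 groups (adjusted p = 0.054), and without WT control replicate 1 or 3 or any of the otu5 control replicates (differences 0.23 to 0.31, adjusted p up to 0.12). The call on low Pi was lost only with equal library sums (difference 0.44, adjusted p = 0.10). Green shoot markers moved with genotype in the same direction. On control medium 6 of 14 were higher in otu5, where 4.85% of all genes were, and on low Pi 2 of 14, where 4% were. Their part in the AHA2 difference was not tested.

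IRT2 was the lowest of the 5 genes on control medium and showed no change by the test in any comparison. Its level was 1.25, 1.76 and 1.65 RPKM in WT control (1.55 ± 0.268, SD, n = 3) and 1.74, 2.23 and 1.76 RPKM in WT low Pi (1.91 ± 0.274). In otu5 it was 2.44, 1.96 and 1.58 RPKM on control medium (1.99 ± 0.43) and 1.57, 1.86 and 1.68 RPKM on low Pi (1.70 ± 0.144). All 4 groups overlapped with their neighbours in the order of means. The low Pi differences were 0.24 in WT (95% interval -0.11 to 0.58, limma adjusted p = 0.45) and -0.17 in otu5 (95% interval -0.51 to 0.18, adjusted p = 0.57). Between genotypes they were 0.28 on control medium (adjusted p = 0.29) and -0.13 on low Pi (adjusted p = 0.66). IRT1 and IRT2 are neighbours on chromosome 4, and how reads matching both were shared is not stated.

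IRT1 and IRT2 belong to the ZIP family of metal transporters, which also carry zinc and other metals. IRT1 held 11.4% ± 1.18 of the summed RPKM of the 15 family members in WT on control medium (SD, n = 3) and 5.78% ± 2.32 in otu5. On low Pi it held at most 0.184% in WT. ZIP3 and IRT3 held the largest shares in WT control, 27.1% and 20.8%. On low Pi most of the relatives tested rose in WT. There 7 of the 9 other members tested rose and 1 fell, where 2.55% of all genes rose and 1.74% fell, with a median log2 difference of 0.57 against -0.01 over all genes. The count of rises ran from 3 to 7 over the alternative settings in WT and from 0 to 5 in otu5.

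IRT3, which carries zinc and iron, rose from 50.9 ± 4.65 to 84.1 ± 6.31 RPKM in WT (SD, n = 3, log2 difference 0.72, limma adjusted p = 0.0069). ZIP9 rose from 1.05 ± 0.0311 to 4.26 ± 0.71 RPKM (1.60, adjusted p = 0.0013). ZIP4, ZIP2, ZIP3, ZIP5 and ZIP1 rose by 0.55 to 0.74, and ZIP6 fell by 0.35. The rise of ZIP5 did not pass with the replicate block (adjusted p = 0.088). Of 12 fits that each left out 1 library, the WT call was lost in 7 for ZIP6, 4 for ZIP5, 3 for ZIP4 and 2 each for ZIP1 and ZIP3. In otu5 2 of 9 rose, ZIP3 by 0.47 and IRT3 by 0.46, and ZIP6 fell by 0.39, where 4.81% of all genes rose and 3.78% fell. In otu5 the IRT3 call was lost in 5 of the 12 fits, the ZIP3 call in 4 and the ZIP6 call in 2. On low Pi otu5 had lower ZIP9 and ZIP2 than WT (-1.12 and -0.81), where 5.91% of all genes were lower. ZIP1 was higher there (0.45), where 4% of all genes were. On control medium ZIP1 (0.79) and ZIP4 (0.66) were higher in otu5, where 4.85% of all genes were. The ZIP1 call on low Pi was lost in 3 of the 12 fits and the ZIP4 call on control medium in 1. None of the 9 passed the interaction test.

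**Figure D4:**
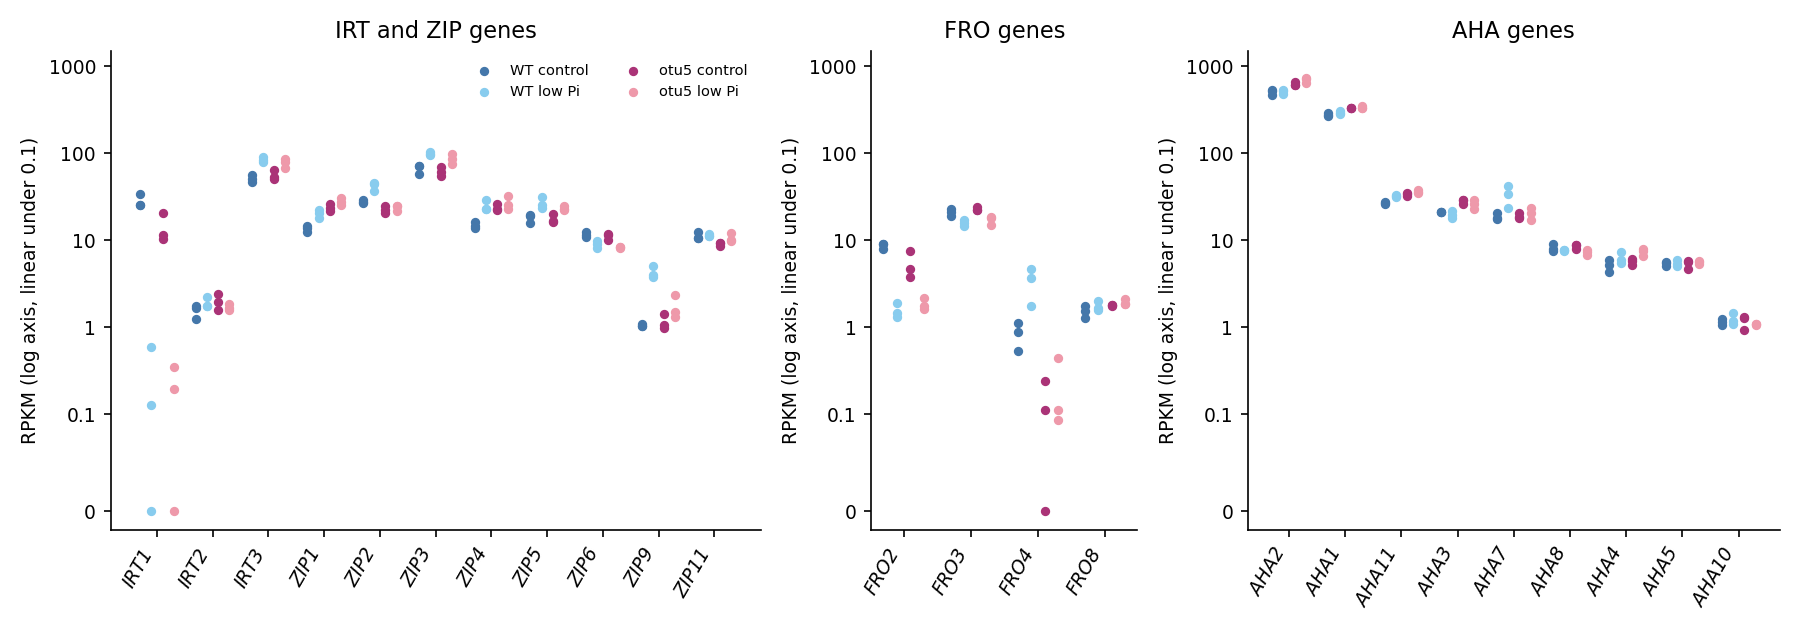
RPKM of the tested members of the IRT and ZIP, FRO and AHA families by group, on a log axis that is linear under 0.1. Each point is a library. IRT1 and FRO2 drop on low Pi while IRT3 and ZIP3 rise in both genotypes, and AHA2 and AHA1 lie above all other AHA genes.

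The FRO family encodes ferric and cupric reductases. FRO2 held 26.8% of the family's summed RPKM in WT control and 6.90% in WT low Pi, and in otu5 17.2% and 8.56%. FRO3, a mitochondrial reductase, held the largest share in WT control, 64.7%. It fell by 0.40 in WT (limma adjusted p = 0.038, or 0.055 with the replicate block) and by 0.41 in otu5 (adjusted p = 0.025). Both FRO3 calls were lost with equal library sums (adjusted p = 0.29 and 0.16), and in 7 and 4 of the 12 fits without a single library. FRO4, a copper reductase, reached the filter through WT libraries alone, mainly those on low Pi where it was highest. It went from 1.12, 0.534 and 0.882 RPKM on control medium to 4.63, 3.66 and 1.73 on low Pi (log2 difference 1.45, adjusted p = 0.035). It no longer passed in the 6 fits that left out any WT control library, replicates 1 or 2 of WT low Pi, or replicate 3 of otu5 control (adjusted p up to 0.11), and with a pseudocount of 0.1 or a fit of only the 2 groups. In otu5 it stayed at 0.447 RPKM or less in all 6 libraries, and on low Pi it was lower than in WT by 2.37 on the log2 scale (adjusted p = 0.0025). Both FRO4 calls also passed with no filter on low values. FRO4 and FRO5 are near-identical, so the split of their reads is uncertain. FRO1, the neighbour of FRO2 on chromosome 1, was under the filter.

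AHA2 held 58.2% of the summed RPKM of the AHA proton pumps in WT control and 61.2% in otu5 low Pi, and AHA1 held most of the rest. AHA1 was also higher in otu5, by 0.26 on control medium (limma adjusted p = 0.0093) and by 0.20 on low Pi (adjusted p = 0.025). The ratio of AHA2 to AHA1 was 1.83 ± 0.0652 in WT control, 1.75 ± 0.0762 in WT low Pi, 1.88 ± 0.0777 in otu5 control and 2.07 ± 0.125 in otu5 low Pi (SD, n = 3). Of the 8 other AHA genes tested, AHA1, AHA3 and AHA11 were higher in otu5 on control medium, where 4.85% of all genes were higher. AHA1 and AHA3 were higher on low Pi, where 4% were, and AHA7 was lower, where 5.91% were. With equal library sums the calls of AHA1, AHA3 and AHA11 between genotypes were all lost. That setting moved the median genotype difference of all genes by 0.067 on control medium and by -1.3e-05 on low Pi. In WT low Pi AHA7 and AHA11 rose (0.76 and 0.26), where 2.55% of all genes rose. AHA7 did not pass with the replicate block (adjusted p = 0.062). Without single libraries the AHA7 calls were lost in 10 of 12 fits in WT and in 10 of 12 between genotypes, and those of AHA3 in 5 and 4. The AHA1 call between genotypes was lost in 3 of 12 fits on low Pi and in 0 on control medium. AHA1 and AHA2 are close in sequence, so reads could be split between them in ways not stated.

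Of the 4 bHLH partners of FIT, BHLH38 and BHLH39 were tested, and both fell on low Pi. Of all genes tested 1.74% fell in WT and 3.78% in otu5. BHLH38 went from 3.79, 3.26 and 3.19 RPKM to 0.464, 0.145 and 0.0715 in WT (log2 difference -2.46, limma adjusted p = 0.00028). In otu5 it went from 2.57, 2.24 and 2.86 RPKM to 0.277, 0.131 and 0.526 (-1.94, adjusted p = 0.0014). BHLH39 fell by 2.08 in WT (adjusted p = 3e-05) and by 2.32 in otu5 (adjusted p = 9.3e-06). For both genes every low Pi library lay below every control library of its genotype. Groups without overlap were found for 25.3% of all genes in WT and 28.4% in otu5. BHLH38 reached the filter through control libraries alone, and its falls also passed with no filter. BHLH100 and BHLH101 were under the filter. BHLH100 was at 0.604 to 0.828 RPKM in WT control and at 0.0785 or less in WT low Pi, and in otu5 both genes were listed at 0 in all 3 low Pi libraries. Neither of the 2 tested partners differed between genotypes by the test. For BHLH38 on control medium every otu5 library lay below every WT library, where 33.2% of all genes had groups without overlap. The limma adjusted p of that difference was 0.34.

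Of the 8 regulators that act above FIT and its partners, such as BTS, PYE and bHLH121, BHLH11 alone was called. Over all genes 4.29% were called on low Pi in WT, 8.59% in otu5, and 10.4% and 9.91% between genotypes. So 1 of 8 is not read as a result about these regulators. BHLH11, a repressor of iron uptake genes, was lower on low Pi by 0.42 in WT and 0.46 in otu5, and lower in otu5 by 0.39 on control medium and 0.43 on low Pi. In WT its fall did not pass with the replicate block (limma adjusted p = 0.054). All 4 BHLH11 calls were lost with equal library sums, and each in 1 to 5 of 12 fits without a single library. Among 13 tested genes whose products act on the FIT, IRT1 or AHA2 proteins, PSY1R, a receptor kinase that binds AHA2, fell by 0.33 in WT and 0.39 in otu5. FYVE1, which sorts IRT1 at endosomes, was higher in otu5 by 0.24 on control medium and 0.18 on low Pi, and the calcium sensor gene CBL9 was lower by 0.27 and 0.25. The same shares over all genes stand beside these few calls among 13 genes. With equal library sums these calls were lost too, and between genotypes CBL9 was lost in 3 of 12 fits on each medium and FYVE1 in 4 on low Pi. With the replicate block in WT, ZAT12 and CBL1 passed as higher on low Pi (adjusted p = 0.027 and 0.0056), against 0.51 and 0.12 without it.

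Other iron genes moved in both directions. The 4 ferritin genes encode iron storage proteins. On low Pi 3 of the 4 rose in WT and 4 in otu5, where 2.55% and 4.81% of all genes did. Their median differences were 0.53 in each. Over the alternative settings 2 to 4 rose in WT and 1 to 4 in otu5. FER1 went from 102 ± 12.7 to 209 ± 21.0 RPKM in WT (SD, n = 3, log2 difference 1.03, limma adjusted p = 0.0034) and rose by 0.91 in otu5 (adjusted p = 0.0048). FER2, the exception in WT (adjusted p = 0.063), passed with the replicate block (adjusted p = 0.027). Of 5 tested genes that make, export or control coumarins, 1 rose and 1 fell on low Pi in WT, where 2.55% of all genes rose and 1.74% fell. In otu5 1 rose and 2 fell, where 4.81% and 3.78% did, and in both genotypes the falls ran down to 0 over the alternative settings, which include fits without CYP82C4. CYP82C4, which makes the iron-mobilising coumarin sideretin, was at 2.23 to 2.83 RPKM in WT control and 0.705 to 0.900 in otu5 control, and every low Pi library of either genotype listed it at 0. It reached the filter through the WT control libraries alone, and it is the gene counted as falling in WT and 1 of the 2 in otu5. Its low Pi falls and its lower level in otu5 on control medium are therefore given as values. The counts of falls are no result about the list. PDR9, a coumarin exporter, rose on low Pi by 0.46 in WT and 0.50 in otu5.

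Of 20 tested genes of iron distribution and metal detoxification, 3 fell and 1 rose on low Pi in WT, where 1.74% of all genes fell and 2.55% rose. In otu5 4 fell and 1 rose, where 3.78% and 4.81% did. Over the alternative settings the falls ran from 2 to 5 and from 2 to 6, and the rises from 0 to 2 and from 1 to 6. OPT3, which moves iron into the phloem, fell by 1.34 in WT and 1.41 in otu5 (limma adjusted p = 5e-04 and 0.00043). NAS4, a nicotianamine synthase, fell by 0.81 and 1.12, and VTL2 of the vacuolar iron transporter family by 1.04 and 1.18. FRD3, which exports citrate into the xylem, rose by 0.76 and 0.90. Without single libraries the VTL2 calls were lost in 8 and 4 of 12 fits and the FRD3 call in WT in 4. With the replicate block in WT 5 fell and 2 rose, the added genes being FPN1, MTP3 and YSL3. That fit called 649 genes lower and 1047 higher, in place of 355 and 520. Between genotypes VTL5 was the furthest apart, lower in otu5 by 1.78 on control medium and 1.98 on low Pi. OPT3 was higher in otu5 on both media, by 0.60 and 0.52, calls that were lost in 3 and 4 of the 12 fits.

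**Figure D5:**
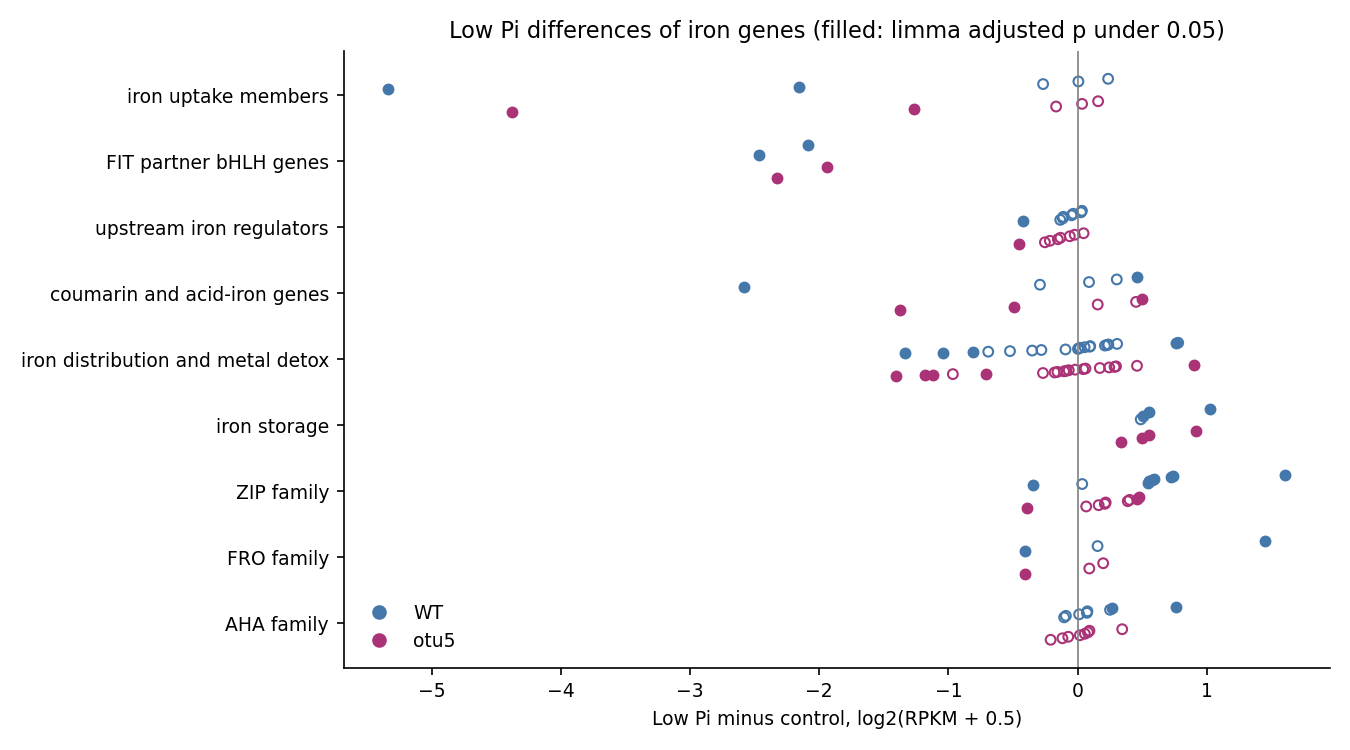
Low Pi minus control differences, as log2(RPKM + 0.5), of the 5 genes and of the tested genes on 8 lists of iron genes, in WT and otu5. Each point is a gene, filled where the limma adjusted p is under 0.05. IRT1, FRO2, the FIT partners and CYP82C4, the coumarin gene furthest from 0, lie at the left, while the ferritins and most ZIP genes lie to the right of 0. CYP82C4 reached the filter through the WT control libraries alone.

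Genes with the most similar profiles were found by the root mean square difference between centred log2 profiles over the 12 libraries, which share their media and genotypes. For FRO2 the nearest were CYP82C4 (0.301), bHLH38 (0.343) and AT2G22122 (0.344), against a range of 2.40 for FRO2 itself. These 3 stayed among its 5 nearest with a pseudocount of 1, while AT5G05250 (0.388) and the NAC gene LOV1 (0.392) did not. CYP82C4 was listed at 0 in every low Pi library, and bHLH38 lay at 0.526 RPKM or less there. Their distances to FRO2 therefore depend on the pseudocount, and 0.1 was not tried for the profiles. For IRT1 the nearest were AT4G12500 (1.22), AT1G73120 (1.27) and AT3G48344 (1.29), which stayed with a pseudocount of 1. They were followed by bHLH38 (1.37) and bHLH39 (1.42), which did not stay. Against a range of 6.10 for IRT1, none of these was close. AHA2 was nearest to KAT3, a potassium channel subunit gene (0.076), and to SYTD, AAC3, OPT4 and DiT1 (0.0821 to 0.0852), against a range of 0.66. For IRT2 they were CTF2B, GLX2-1 and AGAL2 among others (0.0993 to 0.116), and for FIT 5 genes carried by identifier only, led by AT2G44940 (0.0794). With a pseudocount of 1, 4 of the 5 nearest genes of AHA2, IRT2 and FIT were the same, with DiT1 lost for AHA2.

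Markers of tissues moved with some of these comparisons. The 6 epidermis and hair markers, the tissue in which IRT1 and FRO2 are known to act, summed to 91.5 to 108 RPKM in WT control, 117 to 158 in WT low Pi, 92.0 to 98.6 in otu5 control and 95.7 to 110 in otu5 low Pi. No share over all genes was taken for such sums. LRX1 alone among the 6 passed in WT (0.85, limma adjusted p = 0.0097), where 2.55% of all genes rose. LRX1 was also lower in otu5 than in WT on low Pi, where 5.91% of all genes were. Of the 8 endodermis markers 1 was lower in otu5 on each medium. Of 5 xylem markers 2 were lower in otu5 on control medium, where 5.52% of all genes were. Of the 14 green shoot markers 2 fell on low Pi in WT, where 1.74% of all genes fell. With the replicate block 9 fell, in a fit that called 649 genes lower in place of 355. In otu5 8 fell, where 3.78% of all genes did. Over the alternative settings the counts ran from 0 to 9 and from 2 to 14. The part of these tissue markers in the low Pi differences was not tested.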

How the data were processed

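The series holds 36 samples, of which 12 RNA libraries were used. The 8 methylation and 16 chromatin samples were not analysed here. The values are the authors' deposited RPKM, in a table of 33557 genes with 1 column per library matched to its sample by name. The submitters' processing notes list TAIR10, TopHat2 2.0.4 and Cuffdiff without saying what each did. The scaling between libraries, the sharing of reads that match several genes and the use of strand are not given in the sources used here. The table holds no counts, so the absolute depth is unknown and no counting interval is given. An exact 0 can be a failed estimate, so a gene with that value is called listed at 0.

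The filter kept 20411 genes that reached 1 RPKM in 3 or more of the 12 libraries and left out 13146. The test was run in limma 3.58.1 (R 4.3.3) on log2(RPKM + 0.5). A single fit of 4 group means, with 8 residual degrees of freedom and trend and robust empirical Bayes, gave 5 comparisons. P-values were adjusted over all genes by the Benjamini-Hochberg method, with a threshold of 0.05. Tables and figures were made with Python 3.11.15, pandas 2.3.3, scipy 1.17.1 and matplotlib 3.10.9. For OTU5 a two-sided exact permutation test was also made, with p = 0.1 on both media, the minimum for groups of 3. Simulated data of 20411 genes in 5 runs were used to test the procedure. For the low Pi comparison in WT, genes given a log2 shift of 0.5 were found in 55.8% of cases, of 1 in 83.9% and of 2 in 97.3%, and 3.66% of the calls were false. For the interaction the same shares were 31.0%, 69.3% and 93.0%, and 6.27% of the calls were false. The simulated errors were independent between libraries, with 1 spread per gene for all libraries, and 200 genes were changed. These rates may not hold for the data, in which some libraries deviated together.

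Same-numbered WT libraries deviated together, with correlations of 0.114 to 0.259 between deviations from the group means, so the replicate number was also fitted as a block in WT. In otu5 the same correlations were -0.113 to -0.004, and of the 15 same-numbered pairs outside WT 3 were over 0.1. Pairs with different numbers reached similar values, such as 0.254 for WT low Pi replicate 1 with otu5 low Pi replicate 3. Another was 0.182, for WT control replicate 2 with otu5 control replicate 1. The replicate number is therefore not shown to be a batch, and the block was chosen from these same deviations.

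The 5 genes and the 15 lists beside them (133 genes, 116 tested) were chosen with earlier results of these data known. Named genes are the 5, OTU5, up to 6 called genes per list and comparison by absolute difference, the largest members of each family and the 5 nearest profiles of each gene. Genes on the untested side of the filter and genes that pass only with the replicate block were named after their values were seen. Names, chromosomes and neighbours were looked up in RefSeq's gene list for TAIR10.1, in which 32810 identifiers (97.8%) were found. Genes it does not name were left out of the lists. Protein and promoter sequences were not used here. The alternatives were 2 pseudocounts, 2 filters, 2 scalings, plain empirical Bayes, library weights, fits of only 2 groups, 2 replicate blocks and each library left out.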

Additional observations from a re-analysis of the deposited data

How the results depend on the processing

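The falls of IRT1 and FRO2 on low Pi kept their direction and passed in both genotypes under every alternative, and IRT2 passed under none. A filter of 5 RPKM removed IRT2, the fit of 2 groups cannot give the interaction, and the planned comparison of protein and promoter sequences was not run. In WT low Pi against control 875 genes were called, 2005 with library weights, 1696 with the replicate block in WT and 787 with equal library sums (699 higher and 88 lower, against 520 and 355). In otu5 low Pi against control 1754 were called, 7631 with library weights, 855 from the 2 groups alone and 917 with equal library sums (727 higher and 190 lower, against 982 and 772). Between genotypes on control medium the count was 2117, or 6795 with library weights and 529 with equal library sums (377 higher and 152 lower, against 990 and 1127). On low Pi it was 2023, or 4382 with library weights, 645 with equal library sums and 502 from the 2 groups alone. The interaction called 1 gene, 147 with library weights, 2 with no filter or with plain empirical Bayes, and 0 with equal library sums or with the replicate block over all libraries. Leaving out single libraries moved these 5 counts over 240 to 1346, 503 to 2483, 703 to 2250, 824 to 2254 and 0 to 17. The lowest came without WT control replicate 3, otu5 control replicate 3, otu5 control replicate 3, otu5 low Pi replicate 1 and several libraries, in that order. Equal library sums shifted the median difference of all genes by 0.124 in WT low Pi against control, from -0.005 to 0.119. That scaling left the gene with the highest mean over the 12 libraries out of each sum. AT2G01021 was the highest gene of WT control replicate 3, at 317971 RPKM, and that library had the highest sum. AT2G01021 was also highest in otu5 control replicate 1 and otu5 low Pi replicate 1, and AT1G07600 was highest in every other library. AT2G01021 may therefore have stayed in the sums. The part of AT2G01021 in the shift was not tested. For IRT1 between genotypes the difference was -0.9997 with a pseudocount of 1 (passing), -0.53 with library weights and -1.32 to -0.84 with single libraries left out on control medium, not passing with equal library sums or a pseudocount of 0.1 (adjusted p = 0.25 and 0.36). On low Pi it was 0.025 with library weights and -0.31 to 0.25 with libraries left out. FRO2 between genotypes on control medium passed with a pseudocount of 1 (-0.65) and with the replicate block (-0.70, adjusted p = 0.048), but not with library weights (-0.35), equal library sums (adjusted p = 0.13) or from the 2 groups (adjusted p = 0.10), and ran from -0.97 to -0.50 with libraries left out. AHA2 on low Pi ran from -0.054 to 0.052 in WT, and in otu5 it was 0.24 and passed with library weights. Between genotypes AHA2 was 0.36 with equal library sums and 0.29 from the 2 groups on control medium, neither passing, and 0.23 to 0.33 with libraries left out. On low Pi it was 0.44 with equal library sums, not passing. FIT in WT low Pi was -0.27 and passed with the replicate block in WT, and in otu5 low Pi it ran from -0.073 to 0.24. Between genotypes FIT passed on control medium with library weights (-0.48) and from the 2 groups (-0.41), and ran from -0.46 to -0.36, while on low Pi it was 0.023 with library weights and ran from -0.22 to 0.10. The cause of these changes was not tested. The replicate block changed no other call of the 5 genes. Of 123 calls of listed genes 52 held under all 23 alternatives, 71 were lost under some and 0 reversed.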
